A study of Mus musculus with 4 samples.

Results

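The genes described here are 44 genes of DNA replication and S phase, taken from the deposited table of kidney expression by gene symbol, of 54078 annotated features in all. They comprise the factors that license origins, the MCM2-7 helicase and its activators, the polymerases and primase, the sliding clamp and its loader, single-stranded DNA binding proteins, enzymes of Okazaki fragment maturation and nucleotide supply, chromatin factors of the replication fork and 3 regulators of the G1/S transition. RNA-seq was performed on 4 libraries of kidney RNA taken at day 3 after bilateral ischaemia-reperfusion injury (bI/R), in which both renal pedicles were clamped for 30 min, to ask how loss of the peptide ELA (encoded by Apela) from tubular cells alters the injured kidney. Each library was a pool of RNA from 3 male mice, with 2 pools of WT and 2 pools of tubule-specific Apela knockout (KO) mice, so every n = 2 below counts pools and not animals. KO mice were Apela flox/flox animals carrying Ksp-Cre, a Cre recombinase driven by the Ksp-cadherin promoter in renal tubular epithelium. WT mice were Cre-negative Apela flox/flox littermates, so that both genotypes carried the floxed allele and differed in Cre itself as well as in its product. All animals were adult, of the labelled strain C57BL/6 x 129S4/SvJae, whereas the study's methods give a C57BL/6 background for both parent lines. All were injured: kidneys of uninjured mice were not analysed here, so the values describe genotype within injury and not the response to injury. Cells outside the tubular epithelium are not targeted by this Cre, and the libraries were made from whole tissue.

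Cells copy their genome once in each cycle. In G1 the origin recognition complex, Cdc6 and Cdt1 load the MCM2-7 helicase onto origins, and in S phase Cdc45 and the GINS complex activate it, after which primase and the polymerases follow with PCNA as their clamp. Many of these genes are controlled by E2F transcription factors, which the retinoblastoma family restrains until cyclin-dependent kinases act at the G1/S transition. Tubular cells of the adult kidney divide rarely, and after ischaemic injury surviving tubular cells enter the cycle to replace lost ones, while immune and stromal cells in the injured kidney also divide.

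The libraries held 16045724 to 16927742 reads on genes, recovered from the FPKM (fragments scaled to exon length in kilobases and to a size for each library), and mitochondrial genes took 5.20% to 6.45% of them. The targeted gene, Apela, was at 5.27 and 4.57 FPKM in the WT pools and at 0.536 and 0.245 FPKM in the KO pools. Its log2 fold change was -2.62 (SE 0.22, n = 2 pools per genotype, adjusted p = 0.466, limma with Benjamini-Hochberg adjustment), a direction that matches the genotype labels. The tissue was checked on Umod, a transcript of the thick ascending limb, at 788 to 1133 FPKM, and on Slc34a1, a phosphate transporter of the proximal tubule, at 365 to 898 FPKM. Nothing in the labels says whether the pools of a genotype shared animals, surgery or days, so p-values measure the spread between these pools only. In whole tissue, fewer dividing cells and less replication RNA per cell cannot be told apart.

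The proximal promoters of these genes are shown first because many of them carry E2F-type letters at their start. RefSeq windows of 250 bases before to 50 bases after the start site (GRCm38.p6) were matched by symbol for 36 of the 44 genes. The 8 others were Rfc2, Prim2, Gins2, Gins4, Mcm4, Gins1, Ccne2 and Pole. The letters TTTCCCGC, TTTCGCGC, TTTGCCGC and TTTGGCGC were searched on both strands, and matches could overlap. At least 1 match, in any window of the gene, was found for 13 of the 36 genes (36.1%). The background was 465 of 10405 genes tested here (4.47%) and 704 of 27025 RefSeq genes with a window (2.60%). The 13 genes were Orc1, Cdc6, Cdt1, Mcm3, Mcm5, Mcm6, Mcm7, Gins3, Pola1, Pold1, Rfc3, Lig1 and Uhrf1. Stretches from the windows of 8 of these genes are printed below on the strand of the gene, 5′ to 3′, with the matches in capitals. They are those of the 4 MCM subunits with a match, of 3 other genes that differed widely between pools of a genotype (Cdc6, Uhrf1 and Lig1), and of Gins3, which had the lowest KO to WT ratio.
Mcm3: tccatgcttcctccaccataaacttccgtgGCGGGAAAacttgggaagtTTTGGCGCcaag
Mcm5: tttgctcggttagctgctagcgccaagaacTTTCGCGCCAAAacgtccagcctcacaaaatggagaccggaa
Mcm6: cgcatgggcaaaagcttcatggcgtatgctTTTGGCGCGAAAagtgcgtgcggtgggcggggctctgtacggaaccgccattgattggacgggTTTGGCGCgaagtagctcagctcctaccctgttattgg
Mcm7: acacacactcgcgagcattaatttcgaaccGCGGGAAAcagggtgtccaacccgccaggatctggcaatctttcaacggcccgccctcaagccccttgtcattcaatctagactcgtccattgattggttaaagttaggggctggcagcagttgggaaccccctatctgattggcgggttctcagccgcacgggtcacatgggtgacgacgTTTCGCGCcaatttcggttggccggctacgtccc
Cdc6: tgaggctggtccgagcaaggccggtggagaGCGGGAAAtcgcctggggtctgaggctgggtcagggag
Uhrf1: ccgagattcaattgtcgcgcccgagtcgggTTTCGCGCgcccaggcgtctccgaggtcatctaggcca
Lig1: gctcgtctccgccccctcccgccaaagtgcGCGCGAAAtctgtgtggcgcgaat
Gins3: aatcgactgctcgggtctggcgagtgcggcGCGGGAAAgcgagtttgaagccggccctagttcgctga

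The stretches lie at chr1:20820263-20820323, minus strand (Mcm3), chr8:75109326-75109397, plus strand (Mcm5), chr1:128359715-128359845, minus strand (Mcm6), chr5:138171834-138172078, minus strand (Mcm7), chr11:98907983-98908050, plus strand (Cdc6), chr17:56304098-56304165, plus strand (Uhrf1), chr7:13278822-13278875, plus strand (Lig1) and chr8:95633488-95633555, plus strand (Gins3). Mcm6 held 3 matches, and Mcm3, Mcm5 and Mcm7 held 2 each. In Mcm5 the pair shares bases, since TTTCGCGC on the strand shown overlaps TTTGGCGC on the opposite strand, and in Mcm6 TTTGGCGC overlaps TTTCGCGC on the opposite strand in the same way. Of genes with a window, the share with a match was 32.4% (12 of 37) for a list of 48 other replication genes. It was 42.1% (8 of 19) for a list of 26 G1/S control genes and 5.88% (1 of 17) for a list of 20 mitosis genes. Of the mitosis genes with a window, 88.2% instead held CCAAT and 76.5% the CHR letters (TTTGAA or TTCGAA, both strands). These shares were 63.9% and 16.7% of the replication genes with a window and 42.1% and 16.4% of the genes tested. A GC box (GGGCGG) was found in 77.8% of the replication genes with a window and in 67.1% of the genes tested. A match describes letters in a window, with no measurement of binding.

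All 44 genes were present in the table, and 43 had a mean of at least 0.5 FPKM and entered the comparison of KO with WT, which covered 15414 genes. Fen1, the flap endonuclease that trims Okazaki fragments, fell below this filter with 15 to 20 reads per library (0.488 and 0.360 FPKM in WT, 0.469 and 0.509 FPKM in KO). Genes on the opposite strand cover 84.2% of its exon bases and the library protocol does not mark strand. How reads in shared bases were counted is not given, so its low level cannot be told apart from the handling of the overlap. Over 10% of exon bases were shared with other genes in 9 of the 44 genes: Fen1, Gins2, Chaf1a, Ccne2, Rfc2, Rfc4, Mcm7, Orc1 and Rfc5. Over the 43 genes the mean level ran from 0.593 FPKM (Orc1) to 37.5 FPKM (Pcna), with a median of 4.80 FPKM.

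**Figure D1:**
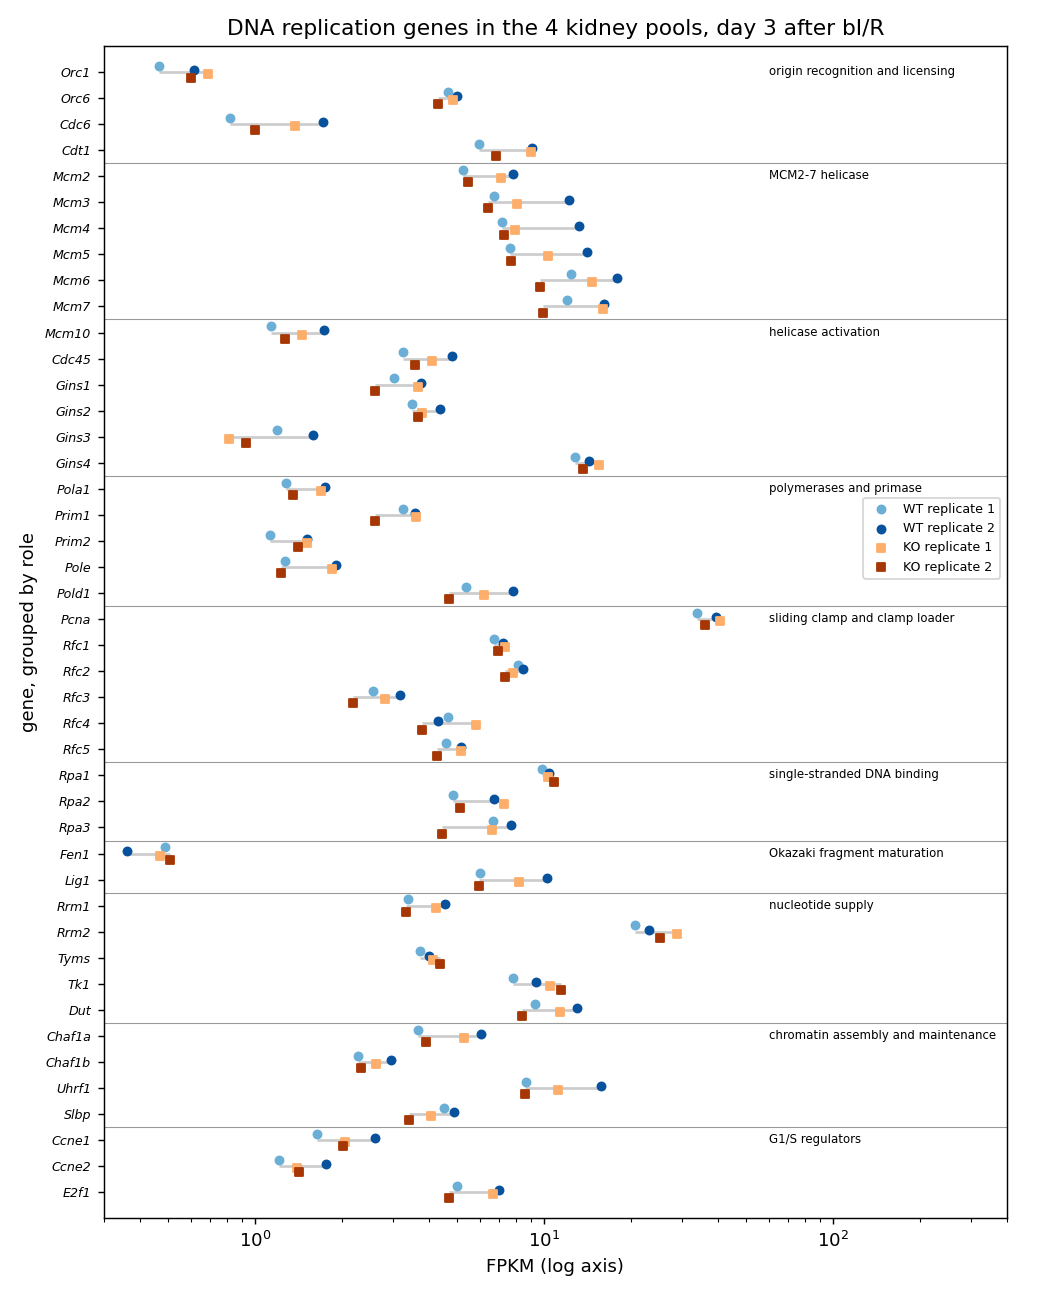
FPKM (log axis) of each of the 44 replication genes in each of the 4 pools, grouped by role, with circles for WT and squares for KO, light for replicate 1 and dark for replicate 2, offset vertically so that no point hides another, and a grey line from the lowest to the highest pool. WT replicate 2 was the highest pool for 32 of the 43 tested genes (29.1% of all genes tested), and WT replicate 1 or KO replicate 2 was the lowest for 42 (46.0% of all genes tested).

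No replication gene passed the test of KO against WT. At an adjusted p under 0.05 (limma on log2(FPKM + 0.5), Benjamini-Hochberg over all genes tested) 0 of the 43 genes were called, against a background of 0% of the 15414 genes. At an unadjusted p under 0.05 limma called 0 of the 43 and 974 of all genes (6.32%; 3.29% higher in KO and 3.03% lower). The count over all genes was 1720 without WT replicate 1, when 3 of the 43 passed, all lower in KO (background 4.94%). The median log2 fold change of KO over WT was -0.050 for the 43 genes and 0.0071 for all genes tested, with 13 genes above 0 (51.4% of all genes tested) and 30 below. The single values ran from -0.45 (Gins3) to 0.33 (Tk1), with standard errors of 0.11 to 0.32. These errors leave room for changes in either direction: the 95% interval of Mcm5, the widest of the MCM subunits, ran from -1.06 to 0.65 on the log2 scale. The sign of the median depended on single pools, since dropping WT replicate 1 gave -0.24 and dropping WT replicate 2 gave 0.15. Dropping KO replicate 1 gave -0.19, and dropping KO replicate 2 gave 0.066. Accordingly 31 of the 43 genes changed sign when a pool was left out and 12 did not.

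The KO pools did not overlap the WT pools for 7 of the 43 genes: 3 were higher in KO, against a background of 19.7% of all genes, and 4 were lower, against 18.1%. The 3 genes above were Rrm2, Tk1 and Tyms, all enzymes of nucleotide supply, and the 4 below were Gins3, Rpa3, Slbp and Rfc2. These counts also moved with single pools: genes above numbered 23 without WT replicate 2 (background 34.3%) and 10 without KO replicate 2 (35.1%), and genes below numbered 32 without WT replicate 1 (35.9%) and 20 without KO replicate 1 (32.9%). Those backgrounds are higher because 1 pool is more easily separated from 2 pools than 2 from 2. With 2 pools a side, the smallest two-sided p of an exact permutation test is 0.333, so no single gene could pass such a test.

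**Figure D2:**
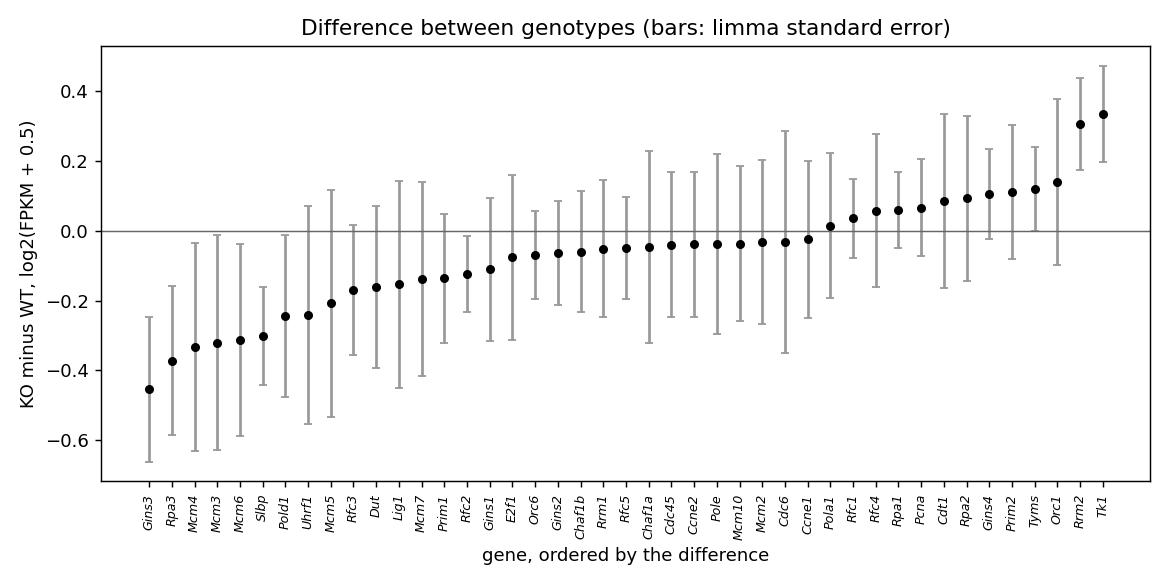
Log2 fold change of KO over WT on the log2(FPKM + 0.5) scale for each of the 43 tested replication genes, ordered by that value, with the limma standard error as a vertical bar (n = 2 pools per genotype). The values run from -0.45 (Gins3) to 0.33 (Tk1), and the 95% interval of each of the 43 genes, which is wider than the bar shown, includes 0.

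Nucleotide supply held the 2 largest positive values. Rrm2, the regulated small subunit of ribonucleotide reductase, was at 20.6 and 23.1 FPKM in WT and at 29.0 and 25.3 FPKM in KO. The groups did not overlap, and its log2 fold change was 0.30 (SE 0.13, n = 2 pools per genotype, limma adjusted p = 0.797). Tk1, the cytosolic thymidine kinase of the salvage pathway, was at 7.85 and 9.43 FPKM in WT and at 10.5 and 11.5 FPKM in KO. Its log2 fold change was 0.33 (SE 0.14, limma adjusted p = 0.786), with a 95% interval from -0.028 to 0.70. Tyms, thymidylate synthase, was at 3.73 and 4.01 FPKM in WT and at 4.12 and 4.36 FPKM in KO, a narrow separation. Both Rrm2 and Tk1 kept a positive value with each pool left out in turn (0.21 to 0.40 and 0.21 to 0.46), as did Tyms (0.072 to 0.16). The remaining genes of the group did not share this order. Rrm1, the large subunit that pairs with Rrm2, was at 3.39 and 4.54 FPKM in WT and at 4.25 and 3.34 FPKM in KO, and Dut, the dUTPase that keeps uracil out of DNA, was at 9.29 and 13.0 FPKM in WT and at 11.4 and 8.41 FPKM in KO. In both the genotypes overlapped, and the log2 fold changes were -0.052 and -0.16.

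The MCM2-7 helicase genes differed between the pools of WT more than between the genotypes. Mcm2 was at 5.24 and 7.81 FPKM in WT and at 7.13 and 5.48 FPKM in KO. Mcm3 was at 6.73 and 12.3 FPKM in WT and at 8.08 and 6.40 FPKM in KO. Mcm4 was at 7.16 and 13.2 FPKM in WT and at 7.98 and 7.29 FPKM in KO. In each of these 3 subunits WT replicate 2 was the highest pool, and in Mcm3 and Mcm4 the other 3 pools lay close together. Mcm5 was at 7.62 and 14.1 FPKM in WT and at 10.3 and 7.71 FPKM in KO. Mcm6 was at 12.4 and 18.0 FPKM in WT and at 14.7 and 9.67 FPKM in KO. Mcm7 was at 12.0 and 16.1 FPKM in WT and at 16.0 and 9.91 FPKM in KO. All 6 subunits, which form 1 ring, were highest in WT replicate 2, and in all 6 KO replicate 1 exceeded KO replicate 2. The ratio of WT replicate 2 to WT replicate 1 ran from 1.34 (Mcm7) to 1.85 (Mcm5), and that of KO replicate 1 to KO replicate 2 from 1.09 (Mcm4) to 1.62 (Mcm7). The 6 log2 fold changes of KO over WT were all below 0, from -0.33 (Mcm4, SE 0.30) to -0.032 (Mcm2, SE 0.24), with limma adjusted p-values of 0.854 to 0.987. Without WT replicate 2 those of 5 subunits turned positive, at 0.23 (Mcm2), 0.089 (Mcm3), 0.086 (Mcm4), 0.22 (Mcm5) and 0.065 (Mcm7), and only Mcm6 stayed below 0. Without KO replicate 2 those of Mcm2 and Mcm7 were 0.14 and 0.20.

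Origin licensing genes spanned a wide range of level. Cdt1, which brings the MCM ring to origins, was the highest of the 4 at 5.98 and 9.11 FPKM in WT and 9.06 and 6.83 FPKM in KO. Cdc6, its partner in loading, was at 0.821 and 1.72 FPKM in WT and at 1.37 and 1.00 FPKM in KO. Its highest pool exceeded its lowest 2.10-fold, the widest spread of the 43 genes, on 69 to 155 reads. Orc1, the largest subunit of the origin recognition complex, was at 0.465 and 0.618 FPKM in WT and at 0.687 and 0.602 FPKM in KO. Orc6, another subunit, was at 4.66 and 4.99 FPKM in WT and at 4.84 and 4.32 FPKM in KO. The genotypes overlapped in all 4 genes, and the log2 fold changes lay between -0.070 (Orc6) and 0.14 (Orc1). That of Orc1 was 0.033 without WT replicate 1, 0.25 without WT replicate 2 and 0.26 with voom weights.

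Among the factors that activate the helicase, the 4 GINS subunits form 1 complex and differed in level. Gins4 was at 12.8 and 14.3 FPKM in WT and at 15.5 and 13.7 FPKM in KO, well above the other subunits on this length-corrected scale. Gins3 was at 1.19 and 1.59 FPKM in WT and at 0.816 and 0.932 FPKM in KO, with no overlap, on 37 to 74 reads. Its log2 fold change of -0.45 (SE 0.21, n = 2 pools per genotype, limma adjusted p = 0.797) was the most negative of the 43 and ran from -0.60 to -0.30 over the fits that lacked a pool. Gins1 was at 3.04 and 3.76 FPKM in WT and at 3.67 and 2.60 FPKM in KO. Gins2 was at 3.51 and 4.38 FPKM in WT and at 3.79 and 3.67 FPKM in KO, with 67.3% of its exon bases shared with Gse1. The log2 fold changes of Gins1 and Gins2 were -0.11 and -0.065, and without WT replicate 2 they were 0.023 and 0.078. That of Gins4 was 0.10 (SE 0.13) and ran from 0.018 to 0.19 with a pool left out. Cdc45, which joins GINS on the ring, was at 3.26 and 4.80 FPKM in WT and at 4.11 and 3.58 FPKM in KO, and Mcm10, which takes part in origin firing, was at 1.14 to 1.73 FPKM over the 4 pools.

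The polymerase genes overlapped between genotypes throughout. Pold1, the catalytic subunit of lagging-strand polymerase delta, was the highest of the 5 at 5.39 and 7.85 FPKM in WT and 6.23 and 4.71 FPKM in KO, with a log2 fold change of -0.24 (SE 0.23). Prim2, the large primase subunit, was at 1.13 and 1.52 FPKM in WT and at 1.51 and 1.41 FPKM in KO, a log2 fold change of 0.11 (SE 0.19). Pole, the catalytic subunit of leading-strand polymerase epsilon, Pola1 of polymerase alpha and Prim1, the small primase subunit, had log2 fold changes of -0.038, 0.014 and -0.14. With a pool left out, that of Pold1 ran from -0.50 to 0.0076 and that of Prim2 from -0.042 to 0.26. Those of Pole, Pola1 and Prim1 also changed sign. All 5 were higher in WT replicate 2 than in WT replicate 1 and higher in KO replicate 1 than in KO replicate 2.

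For the sliding clamp and its loader the median ratio of the highest to the lowest pool was 1.20, against 1.48 over the 43 genes and 1.37 over all genes tested. Rfc3 and Rfc4 had wider ratios, of 1.46 and 1.54. Pcna, the clamp, was the most abundant of the 44 transcripts, at 34.0 and 39.3 FPKM in WT and at 40.7 and 36.0 FPKM in KO, a log2 fold change of 0.065 (SE 0.14) that was -0.020 under quantile normalization. Reads of its pseudogenes may be split with it, and the highest of these, Pcna-ps2, reached 1.48 FPKM. Rfc1, the large loader subunit, was at 6.71 and 7.22 FPKM in WT and at 7.33 and 6.97 FPKM in KO, so that its highest and lowest pools differed 1.09-fold, the narrowest spread of the 43 genes. Rfc2 was at 8.16 and 8.46 FPKM in WT and at 7.82 and 7.36 FPKM in KO, without overlap, and its log2 fold change was -0.12 (SE 0.11, limma adjusted p = 0.854). Of the Rfc2 exon bases, 15.1% are shared with Lat2 on the opposite strand. Rfc3 was at 2.57 and 3.19 FPKM in WT and at 2.83 and 2.18 FPKM in KO. Rfc4 was at 4.66 and 4.32 FPKM in WT and at 5.81 and 3.77 FPKM in KO, the only one of the 43 genes in which WT replicate 2 did not exceed WT replicate 1. Rfc5 overlapped between genotypes, from 4.27 to 5.18 FPKM.

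The 3 subunits of RPA, which coats single-stranded DNA as a complex, differed from each other in pattern. Rpa1 was nearly level at 9.86 and 10.5 FPKM in WT and 10.3 and 10.9 FPKM in KO. Rpa2 was at 4.84 and 6.74 FPKM in WT and at 7.29 and 5.14 FPKM in KO. Rpa3 was at 6.68 and 7.73 FPKM in WT and at 6.63 and 4.45 FPKM in KO, where KO replicate 1 lay just below the lower WT pool. Its log2 fold change was -0.37 (SE 0.21, limma adjusted p = 0.798) and lay between -0.64 and -0.11 with each pool left out. Lig1, the ligase that seals Okazaki fragments, was at 6.01 and 10.3 FPKM in WT and at 8.24 and 5.97 FPKM in KO, and WT replicate 1 and KO replicate 2 were nearly equal.

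The 4 chromatin factors of the fork were all highest in WT replicate 2 and all had log2 fold changes of KO over WT below 0, but without WT replicate 2 those of Chaf1a, Uhrf1 and Chaf1b were 0.28, 0.17 and 0.099. Uhrf1, which recognises hemimethylated DNA behind the fork, was at 8.69 and 15.7 FPKM in WT and at 11.2 and 8.62 FPKM in KO. Chaf1a and Chaf1b, subunits of the histone chaperone CAF-1, were at 3.67 and 6.06 FPKM in WT and 5.31 and 3.91 FPKM in KO, and at 2.28 and 2.96 FPKM in WT and 2.63 and 2.33 FPKM in KO. Of the Chaf1a exon bases, 52.5% are shared with Ubxn6. Slbp, which binds the stem-loop of replication-dependent histone mRNAs, was at 4.52 and 4.91 FPKM in WT and at 4.07 and 3.41 FPKM in KO. Its genotypes did not overlap, and the log2 fold change of -0.30 (SE 0.14, limma adjusted p = 0.797) ran from -0.42 to -0.19 over such fits. Among the G1/S regulators, E2f1 was at 5.01 and 7.003 FPKM in WT and at 6.65 and 4.71 FPKM in KO. The E-type cyclins, partners of Cdk2, were lower: Ccne1 was at 1.64 and 2.60 FPKM in WT and at 2.04 and 2.01 FPKM in KO, and Ccne2 at 1.21 and 1.76 FPKM in WT and at 1.40 and 1.43 FPKM in KO. All 3 overlapped between genotypes.

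The pools of 1 genotype differed from each other more than the genotypes did, and in a shared direction. For 28 of the 43 genes the difference between the KO and WT means was smaller than both within-genotype differences, against 39.0% of all genes tested. WT replicate 2 exceeded WT replicate 1 for 42 of the 43 genes (background 49.2%), and KO replicate 1 exceeded KO replicate 2 for 38 (background 49.2%). Both held for 37 genes, against 24.7% of all genes. These directions were chosen after the values were seen, and replicate numbers carry no order, so they describe these 4 pools. Beyond counting error (95% interval of the ratio of reads), WT replicate 2 was higher for 28 genes (background 22.5%) and lower for 0 (background 23.2%), and KO replicate 1 was higher for 26 (background 20.3%) and lower for 0 (background 20.5%). The intervals cover counting error only. The median log2 difference of replicates was 0.34 in WT and 0.25 in KO, against -0.0045 and -0.0043 over all genes tested. The exceptions among the KO pools were Gins3, Rpa1, Tyms, Tk1 and Ccne2.

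**Figure D3:**
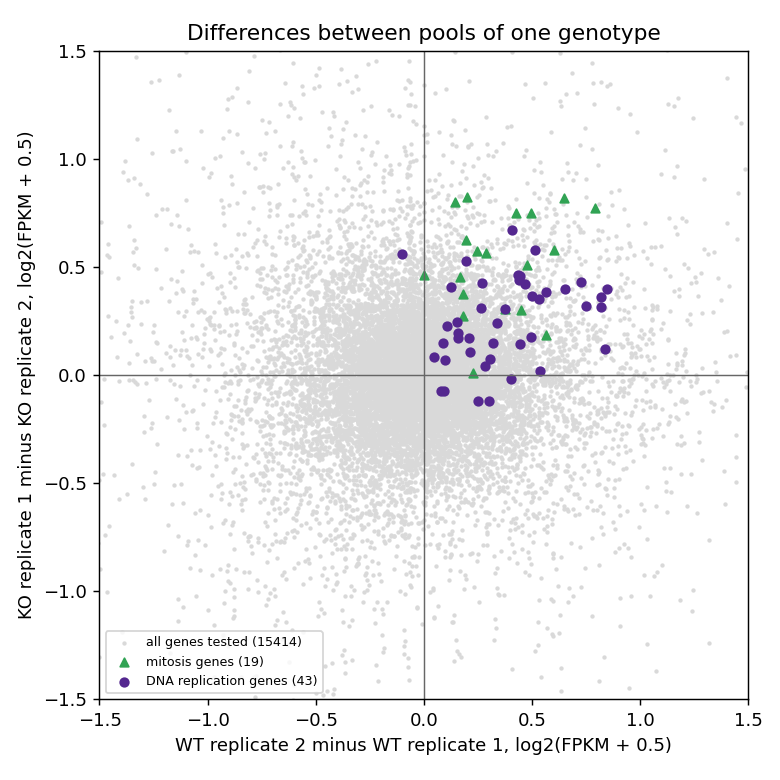
Difference between the WT pools (x axis) against the difference between the KO pools (y axis), both on the log2(FPKM + 0.5) scale, with a point for each gene: grey for all 15414 genes tested, purple circles for the 43 replication genes and green triangles for the 19 mitosis genes. Above 0 on both axes lie 37 of the 43 replication genes, and 378 genes lie beyond the axis limits of -1.5 and 1.5.

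The size of the within-genotype difference varied with role. Median log2 differences in WT and in KO were 0.68 and 0.38 for MCM2-7, 0.49 and 0.29 for the chromatin factors, 0.39 and 0.23 for licensing, 0.34 and 0.37 for the polymerases, 0.29 and 0.16 for helicase activation, 0.25 and 0.19 for nucleotide supply and 0.13 and 0.21 for the clamp and its loader. They were 0.73 and 0.43 for Lig1. The order differed between genotypes: the G1/S regulators had 0.45 in WT and 0.018 in KO, and the RPA subunits had 0.20 in WT and 0.46 in KO. The 13 genes with an E2F match had medians of 0.52 and 0.36, and the 22 tested genes with a window but no match had medians of 0.23 and 0.21. Among 452 other genes with a match the medians were 0.038 and 0.018, near those of all genes. These are descriptions over genes that share the same 4 pools, and no difference between the sets was tested.

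The 48 other replication genes, of which 47 were tested, gave a similar account. In limma 0 genes passed at an adjusted p under 0.05 (background 0%) or an unadjusted p under 0.05 (6.32%), and the median log2 fold change of KO over WT was -0.026, with 18 above 0 and 29 below (51.4% of all genes tested above 0). KO and WT pools did not overlap, with KO higher, for 7 (Mcm8, Pold4, Pole3, Orc5, Gmnn, Rnaseh2a and Dctpp1) and with KO lower for 4 (Orc4, Chtf8, Exo1 and Rif1), against the backgrounds of 19.7% and 18.1%. Pold4, the small accessory subunit of polymerase delta, was at 1.09 and 0.383 FPKM in WT and at 1.58 and 1.56 FPKM in KO, on 6 to 24 reads. Its log2 fold change was 0.80 (SE 0.33, limma adjusted p = 0.786), with 0.37 when WT replicate 2 was dropped 1.23 when WT replicate 1 was, and 1.24 with voom weights. Orc5, an origin recognition subunit, was at 2.56 and 2.25 FPKM in WT and at 3.17 and 3.21 FPKM in KO. Gmnn, geminin, the inhibitor of Cdt1, was at 10.5 and 11.7 FPKM in WT and at 14.5 and 12.3 FPKM in KO. The most negative values were those of Samhd1, a dNTP hydrolase (4.45 and 6.71 FPKM in WT, 4.66 and 3.76 FPKM in KO), Exo1, an exonuclease (0.635 and 0.897 FPKM in WT, 0.589 and 0.424 FPKM in KO), and Rif1, a regulator of replication timing (2.16 and 2.48 FPKM in WT, 1.63 and 1.92 FPKM in KO). Their log2 fold changes were -0.35, -0.33 and -0.31. With a pool dropped these ran from -0.62 to -0.080 for Samhd1 and from -0.48 to -0.18 for Exo1, both closest to 0 when WT replicate 2 was missing, and from -0.40 to -0.22 for Rif1. That of Exo1 was also -0.51 with a pseudocount of 0.1 and -0.60 with voom weights. Gmnn ran from 0.14, with KO replicate 1 dropped, to 0.38. WT replicate 2 exceeded WT replicate 1 for 37 of the 47 genes, KO replicate 1 exceeded KO replicate 2 for 35, and both held for 31.

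Of the 26 G1/S control genes 25 were tested, and 1 passed at an unadjusted p under 0.05 (background 6.32%) while 0 passed after adjustment. The pools of the genotypes did not overlap for 11 of the 25, with 8 higher in KO (Ccnd3, Cdk2, Cdc25a, E2f4, E2f6, Cdkn1a, Cdkn1c and Cdkn2d) and 3 lower (Cdk4, E2f3 and E2f5), against backgrounds of 19.7% and 18.1%. Cdkn1a encodes p21, the inhibitor of cyclin-dependent kinases that also binds PCNA. It was at 25.8 and 24.9 FPKM in WT and at 59.0 and 45.7 FPKM in KO, so both KO pools lay far above both WT pools. Its log2 fold change was 1.02 (SE 0.16, 95% interval 0.59 to 1.45, limma unadjusted p = 0.00197, adjusted p = 0.545), and it lay between 0.84 and 1.20 with each pool left out. All 6 tested CDK inhibitors had log2 fold changes above 0, from 0.032 to 1.02 with a median of 0.15, and 51.4% of all genes tested were above 0. That count rested on single pools: 3 of 6 were above 0 with KO replicate 1 dropped, when Cdkn1b, Cdkn2b and Cdkn2c lay at -0.067, -0.075 and -0.16, and 4 of 6 with WT replicate 1 dropped. Cdkn2d, the INK4 inhibitor p19, was at 9.13 and 7.76 FPKM in WT and at 12.0 and 10.2 FPKM in KO, and Cdkn1c, p57, was at 6.13 and 5.13 FPKM in WT and at 6.27 and 7.01 FPKM in KO. Cdkn2a was below the filter with 2 to 4 reads per library. The most negative of the control genes were Rbl1, the pocket protein p107 (-0.21), Cdk4, the partner of D-type cyclins (-0.19), and E2f5, a repressor E2F (-0.16). That of Cdk4 was -0.048 with WT replicate 2 dropped, that of Rbl1 0.037 with KO replicate 2 dropped, and that of E2f5 ran from -0.24 to -0.089.

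**Figure D4:**
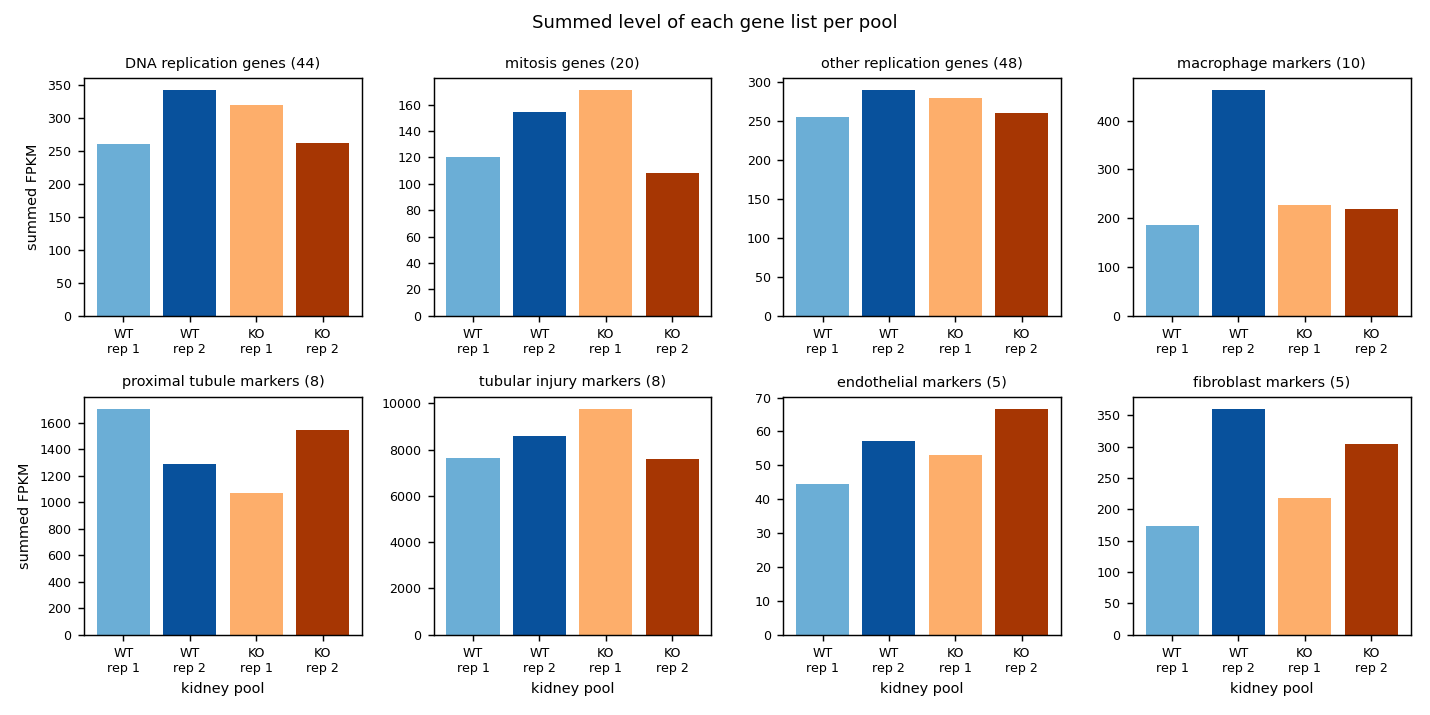
Summed FPKM of each gene list in each of the 4 pools, as 1 bar per pool with its own axis from 0 for each list and the number of listed genes in brackets. The replication genes stand at 261, 343, 320 and 263 FPKM from left to right, and the macrophage markers at 186, 463, 227 and 220 FPKM.

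The mitosis genes shared the within-genotype order. All 19 tested genes of the 20 were higher in WT replicate 2 than in WT replicate 1 and higher in KO replicate 1 than in KO replicate 2, with median log2 differences of 0.29 and 0.56. Mki67, the proliferation antigen, was at 7.43 and 11.5 FPKM in WT and at 9.01 and 5.86 FPKM in KO. Top2a, topoisomerase II alpha, was at 6.55 and 10.6 FPKM in WT and at 9.26 and 5.04 FPKM in KO. Their log2 fold changes of KO over WT were -0.33 (SE 0.29) and -0.26 (SE 0.36), and 0 of the 19 passed at an unadjusted p under 0.05 in limma (background 6.32%). Without WT replicate 2 that of Mki67 was -0.028 and that of Top2a 0.060. Summed over the list, mitosis genes were at 120 and 155 FPKM in WT and at 171 and 108 FPKM in KO, where the highest pool was KO replicate 1. The 44 replication genes summed to 261 and 343 FPKM in WT and to 320 and 263 FPKM in KO, where the highest pool was WT replicate 2.

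Markers of other cell types also differed between pools of a genotype. The 10 macrophage markers summed to 186 and 463 FPKM in WT and to 227 and 220 FPKM in KO, with 10 of 10 higher in WT replicate 2 than in WT replicate 1 and 6 of 10 higher in KO replicate 1 than in KO replicate 2. The 5 fibroblast markers summed to 173 and 361 FPKM in WT and to 218 and 304 FPKM in KO, with 5 of 5 and 0 of 5 in those directions. Both lists were thus higher in the WT pool with the higher replication gene levels. Between the KO pools the fibroblast list ran the other way, as did the 5 endothelial markers at 53.1 and 66.8 FPKM (44.4 and 57.2 FPKM in WT). The 8 proximal tubule markers ran opposite to the replication genes in both genotypes, at 1708 and 1291 FPKM in WT and at 1067 and 1546 FPKM in KO. Of these, 0 of 8 were higher in WT replicate 2 than in WT replicate 1, and 1 of 8 in KO replicate 1 than in KO replicate 2. The 8 tubular injury markers summed to 7638 and 8593 FPKM in WT and to 9779 and 7575 FPKM in KO. Most of that sum was Spp1, osteopontin, at 7026 and 7789 FPKM in WT and at 8961 and 6872 FPKM in KO. Marker by marker, 7 of 8 were higher in WT replicate 2, and 3 of 8 (Havcr1, Vcam1 and Spp1) were higher in KO replicate 1. Between genotypes, 4 of 8 injury markers (Lcn2, Krt18, Krt8 and Krt20) were higher in both KO pools than in both WT pools and 1 (Vcam1) was lower, against backgrounds of 19.7% and 18.1%. Lcn2, the injury marker NGAL, was at 133 and 95.2 FPKM in WT and at 249 and 273 FPKM in KO, a log2 fold change of 1.21 (SE 0.21, limma adjusted p = 0.613). Krt20, a keratin, was at 35.6 and 36.8 FPKM in WT and at 59.97 and 61.04 FPKM in KO, a log2 fold change of 0.73 (SE 0.11, limma adjusted p = 0.545). Vcam1 was at 14.6 and 31.05 FPKM in WT and at 10.5 and 2.59 FPKM in KO. Its log2 fold change of -1.91 (SE 0.703, limma adjusted p = 0.785) was the largest in size of the 8. Havcr1 was at 210.4 and 392.9 FPKM in WT and at 248.7 and 105.4 FPKM in KO, with overlap. Its log2 fold change was -0.826 (SE 0.523, limma adjusted p = 0.807). Of the 8 injury markers, 5 had log2 fold changes above 0 and 3 below. Of the proximal tubule markers, 4 of 8 (Slc34a1, Slc5a2, Slc5a12 and Lrp2) were lower in both KO pools and 2 (Slc22a6 and Slc13a3) were higher. Cdkn1a also separated the genotypes in these pools. Of the 43 replication genes, 3 did so with KO higher and 4 with KO lower, against backgrounds of 19.7% and 18.1%. Distal tubule markers summed to 1582 and 1098 FPKM in WT and to 1640 and 1306 FPKM in KO. Most of that was Umod, at 1080 and 788 FPKM in WT and at 1133 and 858 FPKM in KO. Marker by marker, 0 of 5 were higher in WT replicate 2 than in WT replicate 1, and 3 of 5 in KO replicate 1 than in KO replicate 2. T cell markers summed to 0.495 to 1.78 FPKM and B cell markers to 0.708 to 1.49 FPKM in the 4 pools. Neutrophil markers summed to 10.04 and 18.8 FPKM in WT and to 10.2 and 27.3 FPKM in KO, with Ly6g at 0, and red blood cell markers to 128 and 126 FPKM in WT and to 64.6 and 179 FPKM in KO. The part of these cell types in the differences between pools was not tested.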

How the data were processed

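RNA was taken from whole kidneys at day 3 after bI/R, with 2 pools of WT and 2 pools of KO mice, grouped and numbered as the sample labels name them. The authors made poly(A)-selected libraries with a protocol that does not mark strand, and the submitters' processing notes name HISAT2 2.0.5 and the builds mm10 and GRCm38.p6. The counting tool is not given in the sources used here. What the authors deposited is FPKM, for each gene and each of the 4 libraries, with no counts. The FPKM times gene length, divided by the step that stands for 1 read in each library, gave whole reads within 0.01 for 100% of values above 0. The library size implied by that step was 0.968 to 1.07 times the reads on genes, so the authors' scaling total is not that sum, and library totals of 16045724 to 16927742 reads on genes limit the precision of low genes.

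From these values, log2(FPKM + 0.5) of the 15414 genes with a mean of at least 0.5 FPKM was fitted with limma 3.58.1 (lmFit, eBayes with a trend, R 4.3.3), KO against WT, two-sided, with Benjamini-Hochberg adjustment over all genes tested and calls at an adjusted p under 0.05. Fold changes are on that scale, which understates the change of low genes. Other values were computed in Python 3.11.15. The main fit used the deposited FPKM and no count model, and voom weights on recovered reads were tried as an alternative. The study's methods give a threshold but no model. Deviations of same-numbered pools correlated at -0.0017 over genes. That value cannot show whether same-numbered pools shared surgery, days or litters. Replicates of a genotype differed by more than counting noise (chi-square per gene 34.6 in WT and 26.9 in KO). Gene coordinates equal GENCODE M21 for 97.09% of 53706 shared genes. Exon overlap was computed from that annotation, and promoter windows and motif letters came from RefSeq (GRCm38.p6).

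Named genes were the 44 replication genes, those of the other replication and G1/S control lists with an unadjusted p under 0.05 or among the 3 largest changes each way, Mki67, Top2a and Apela. Genes outside this rule are named where a count of 8 or fewer is given or as cell type markers. The replication genes and all lists were chosen with earlier results of these data known. Where a symbol stood on more than 1 line of the table (Itgam), the line with the most reads was kept. The alternatives tried were other pseudocounts, other filters on low values, quantile normalization, no trend, voom weights on recovered reads, the replicate number as a block and leaving out each pool. The series' design text names adipose tissue while its title and labels name kidney; the markers above are those of kidney.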

Additional observations from a re-analysis of the deposited data

How the results depend on the processing

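With 2 pools per genotype and 4 libraries, calls rest on little replication, and Orc1, Gins3, Cdc6, Fen1 and Pold4 rest on few reads. Limma with Benjamini-Hochberg adjustment called 0 genes under every setting that kept all 4 pools. Apela, the targeted gene, was not called either (limma adjusted p = 0.466 in the main fit), so 0 calls do not show that no gene differed. The study's own analysis reported differentially expressed genes between the injured genotypes at an adjusted p under 0.05. At an unadjusted p under 0.05 limma called 974 genes here. Dropping WT replicate 1 raised that unadjusted count to 1720, and dropping any of the other pools gave 687 to 779. With no filter, which tests 27251 genes, it was 1538. With the replicate number as a block it called 0 genes (932 at an unadjusted p), and the replication gene median stayed at -0.050. Whether the replicate numbers pair the pools is not known from the labels. At an unadjusted p under 0.05, 1 of 43 replication genes was lower without the trend (3.13% of all genes), 1 higher with voom weights (3.30%), 3 lower without WT replicate 1 (4.94%), 1 higher without WT replicate 2 (2.28%) and 1 lower without KO replicate 1 (2.59%).

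Leaving out each pool in turn gave a replication gene median from -0.24 to 0.15, 3 to 23 genes with KO above WT in all pools and 4 to 32 with KO below, against 34.3% to 37.7% and 32.0% to 35.9% of all genes tested when a pool is missing. It turned the log2 fold change of 31 of the 43 replication genes and of Rbl1 and Top2a: Orc6 (-0.14 to 0.0050), Cdc6 (-0.41 to 0.34), Cdt1 (-0.20 to 0.37), Mcm2 (-0.30 to 0.23), Mcm3 (-0.73 to 0.089), Mcm4 (-0.75 to 0.086), Mcm5 (-0.63 to 0.22), Mcm7 (-0.47 to 0.20), Mcm10 (-0.26 to 0.18), Cdc45 (-0.29 to 0.21), Gins1 (-0.32 to 0.10), Gins2 (-0.21 to 0.078), Pola1 (-0.16 to 0.18), Prim1 (-0.34 to 0.066), Prim2 (-0.042 to 0.26), Pole (-0.26 to 0.18), Pold1 (-0.50 to 0.0076), Pcna (-0.038 to 0.17), Rfc1 (-0.014 to 0.085), Rfc4 (-0.22 to 0.34), Rfc5 (-0.17 to 0.073), Rpa2 (-0.14 to 0.32), Lig1 (-0.52 to 0.21), Rrm1 (-0.24 to 0.14), Dut (-0.40 to 0.073), Chaf1a (-0.37 to 0.28), Chaf1b (-0.22 to 0.10), Uhrf1 (-0.65 to 0.17), Ccne1 (-0.29 to 0.24), Ccne2 (-0.24 to 0.16), E2f1 (-0.30 to 0.15), Rbl1 (-0.45 to 0.037) and Top2a (-0.67 to 0.14). Where a pool is left out, the lone pool of its genotype is assumed to vary like the other genotype. Quantile normalization turned Pcna to -0.020, Ccne1 to 0.0074 and Cdc6 to 0.00064. Of the genes that kept their sign, Mcm6 ran from -0.60 to -0.023, Rfc3 from -0.33 to -0.014, Gins4 from 0.018 to 0.19, Rpa1 from 0.018 to 0.098 and Orc1 from 0.033 to 0.25 with a pool missing. The cause was not tested.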
